A study of Homo sapiens with 25 samples.

Results

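The regions described here are core distal NKX2-1 enhancer candidates, meaning stretches of chromatin that carried a peak of the transcription factor NKX2-1 and a peak of the active mark H3K27ac in each of 4 human lung adenocarcinoma cell lines. They were chosen by merging the 4 NKX2-1 peak lists on chromosomes 1 to 22 and X. A merged region was kept when it overlapped an NKX2-1 peak and an H3K27ac peak of every line, lay more than 5 kb from either end of any protein-coding gene, and overlapped no H3K4me3 peak of NCI-H2087. Of 145798 merged regions, 7519 met the rule, which is 5.16% of them and 37.0% of the 20315 distal regions bound in all 4 lines without H3K4me3.

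The study, whose title concerns amplified dosage of NKX2-1 in lung adenocarcinoma, profiled untreated NCI-H2087 cells, NCI-H358 cells, NCI-H441 cells and HCC364 cells by ChIP-seq, in which formaldehyde-fixed chromatin is immunoprecipitated with an antibody and sequenced. The lines were cultured in RPMI medium with serum, and no genotype, transgene or treatment separates them in the labels. NKX2-1, H3K27ac and H3K4me1 were profiled in every line, and in NCI-H2087 also H3K4me3, FOXA1, FOXA2, SOX2, c-Jun, EP300, RNA polymerase II and CTCF. Each pairing of line and antibody is 1 library, so a share of regions within a line has counting error only, and the 4 lines serve as the replicates wherever a mark was read in all of them.

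NKX2-1 is the homeodomain transcription factor that specifies lung and thyroid epithelium and stays expressed in alveolar type 2 cells and in many lung adenocarcinomas. Enhancers are regulatory stretches away from gene starts, commonly flanked by nucleosomes with H3K4me1, and with H3K27ac when active, a mark that EP300 and its relative CBP deposit. FOXA1 and FOXA2 are forkhead pioneer factors of the foregut that can open closed chromatin, SOX2 is a foregut and airway factor, c-Jun is a subunit of the growth-responsive AP-1 dimer, and CTCF holds chromatin loops and domain borders.

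Sequence is shown first for 6 regions, as examples of the letters under a strong NKX2-1 summit. They are the annotated start windows of non-coding RNA genes, 250 bases before and 50 after the start, taken from the RefSeq table of GRCh38.p14, and each lies whole inside a core distal region and holds its strongest NKX2-1 summit. The 6 were picked after their matches were seen. Each runs 5′ to 3′ on the strand given, positions count from 1 at its first base, and capitals mark the NKX2-1 core (CACTTGA or CACTCAA), the AP-1 element (TGANTCA) or the forkhead element (TGTTTAC) on either strand. A match is a description of letters and not a bound site.
LOC124901448: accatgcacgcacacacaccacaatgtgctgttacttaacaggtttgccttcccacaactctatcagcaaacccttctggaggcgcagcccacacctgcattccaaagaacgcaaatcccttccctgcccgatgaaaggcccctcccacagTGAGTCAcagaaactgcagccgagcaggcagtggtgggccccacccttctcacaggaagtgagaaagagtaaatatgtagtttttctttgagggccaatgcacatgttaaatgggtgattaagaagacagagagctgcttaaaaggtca
LOC105372652: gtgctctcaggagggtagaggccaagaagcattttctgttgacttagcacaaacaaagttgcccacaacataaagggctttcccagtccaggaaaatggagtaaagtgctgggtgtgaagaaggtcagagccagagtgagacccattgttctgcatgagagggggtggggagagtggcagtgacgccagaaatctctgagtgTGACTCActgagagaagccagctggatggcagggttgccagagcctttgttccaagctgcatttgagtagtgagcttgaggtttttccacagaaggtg
LOC124903960: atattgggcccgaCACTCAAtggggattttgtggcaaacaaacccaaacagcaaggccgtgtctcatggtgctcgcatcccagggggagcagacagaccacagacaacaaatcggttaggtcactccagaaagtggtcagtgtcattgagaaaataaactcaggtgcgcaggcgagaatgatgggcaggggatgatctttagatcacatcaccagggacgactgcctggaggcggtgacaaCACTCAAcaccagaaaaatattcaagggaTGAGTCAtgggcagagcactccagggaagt
LOC107986629: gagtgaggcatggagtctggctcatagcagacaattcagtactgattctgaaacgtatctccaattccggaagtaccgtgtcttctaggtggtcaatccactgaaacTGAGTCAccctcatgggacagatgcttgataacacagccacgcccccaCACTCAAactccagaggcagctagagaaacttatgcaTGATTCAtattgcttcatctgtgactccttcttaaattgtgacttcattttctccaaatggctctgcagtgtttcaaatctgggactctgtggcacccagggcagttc
TRD-AS1: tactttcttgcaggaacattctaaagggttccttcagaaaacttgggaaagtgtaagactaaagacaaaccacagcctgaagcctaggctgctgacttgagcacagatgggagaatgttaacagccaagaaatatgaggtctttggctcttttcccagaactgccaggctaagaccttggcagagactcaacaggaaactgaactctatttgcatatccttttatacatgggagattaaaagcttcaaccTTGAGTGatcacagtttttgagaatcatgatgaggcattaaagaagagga
LOC124901804: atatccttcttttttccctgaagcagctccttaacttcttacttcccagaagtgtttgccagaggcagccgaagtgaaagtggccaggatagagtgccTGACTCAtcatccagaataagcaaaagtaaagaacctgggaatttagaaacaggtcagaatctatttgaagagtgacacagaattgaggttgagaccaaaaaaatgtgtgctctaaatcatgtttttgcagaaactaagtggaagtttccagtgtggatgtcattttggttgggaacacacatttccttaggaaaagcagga

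The window of LOC124901448 (chr6:158853338-158853637, plus strand) lies 33.8 kb from an end of EZR, which encodes ezrin, a linker of membrane and actin. Its AP-1 element began at position 152, and the strongest NKX2-1 summit stood at position 250. The region holding it had NKX2-1 folds of 34.8 in NCI-H2087 cells, 29.8 in NCI-H358 cells, 43.0 in NCI-H441 cells and 40.7 in HCC364 cells, and all of FOXA1, FOXA2, SOX2, c-Jun and EP300 in NCI-H2087. A fold here and below is the authors' linear ratio of the summit over the local background, comparable within a peak list. The window of LOC105372652 (chr20:49772294-49772593, minus strand), 39.9 kb from SLC9A8, also lay in a region with those 5 factors, and its AP-1 element began at position 203 beside a summit at position 201.

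The window of LOC124903960 (chr17:27552038-27552337, minus strand), 72.5 kb from KSR1, a scaffold of the MAPK cascade, held 2 NKX2-1 cores and an AP-1 element that began at position 271 with the summit at position 270. The window of LOC107986629 (chr6:108738012-108738311, plus strand), 53.0 kb from FOXO3, held an NKX2-1 core at position 156 near the summit at position 169, and 2 AP-1 elements. In the window of TRD-AS1 (chr14:22432704-22433003, minus strand) the only match of the 3 marked elements was an NKX2-1 core at position 251 with the summit at position 253, and the c-Jun peak of that region was weak (fold 5.95). The window of LOC124901804 (chr7:49523960-49524259, plus strand), 248.9 kb from VWC2, had its AP-1 element at position 99 and the summit at position 86.

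Across all start windows lying whole inside core distal regions, 156 windows in 150 regions, the AP-1 element was the most frequent of the 5 motifs searched. It was found in 69 of 156 windows, 44.2% (exact Clopper-Pearson 95% interval 36.3% to 52.4%), beside 11.6% of the 12418 windows more than 5 kb from coding gene ends and 7.69% of all 34789 windows. Median GC content was 47% in the windows inside core distal regions and 48% in the distal windows. The NKX2-1 core was found in 15.4% of windows inside core distal regions (10.1% to 22.02%), beside 6.66% of the distal windows, and the TEAD element GGAATG in 25.6% (19.0% to 33.2%) beside 17.8%. For the SOX element CATTGT the shares were 20.5% (14.5% to 27.7%) and 16.2%, and for the forkhead element 7.05% (3.57% to 12.3%) and 4.75%, so the intervals of both spanned the share of the distal windows.

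The AP-1 element was also found in 37 of 89 windows inside distal regions bound in all lines and acetylated in some of them (41.6%, 31.2% to 52.5%), and in 6 of 18 windows inside unacetylated ones (33.3%, 13.3% to 59.0%), and the intervals of the 3 classes overlapped. Within core distal regions it stood in 48.4% of 124 windows whose region had a c-Jun peak (39.3% to 57.5%) and in 28.1% of 32 windows whose region had none (13.7% to 46.7%). The NKX2-1 core was found in 12.4% of the 89 windows (6.33% to 21.0%) and 16.7% of the 18 (3.58% to 41.4%). For the TEAD element the shares were 21.3% (13.4% to 31.3%) and 11.1% (1.38% to 34.7%). For both motifs these intervals overlapped those of the core distal windows. In the 77 windows that held the strongest NKX2-1 summit, the AP-1 element was present in 47 and lay at a median of 39 bp from the summit. The NKX2-1 core was present in 13 of them, at a median of 10 bp. The windows cover 1.99% of the core distal regions, all at annotated RNA starts, so they are not a sample of the whole set.

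The regions were wider than the other distal ones. Their median width was 1043 bp (quartiles 800 and 1412 bp), against 615 bp for distal regions bound in all lines but acetylated in no line and 521 bp for all merged regions. In all they covered 8.85 Mb. Their median distance to the nearest coding gene end was 37.2 kb, 54.5% lay inside a coding gene, 13.4% inside a long non-coding RNA gene only and 32.1% in neither. Over all merged regions these shares were close, 50.2%, 12.6% and 37.2%.

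The rule sits on a continuum at its edges. The region closest to a gene end among those kept lay 5002 bp from PHLDB2, with NKX2-1 folds of 13.0, 15.7, 16.5 and 21.6 in NCI-H2087 cells, NCI-H358 cells, NCI-H441 cells and HCC364 cells. The nearest one outside lay 4994 bp from UNC93A, with folds of 5.61, 10.3, 9.37 and 14.1 in the same lines. Between 5 and 6 kb from a gene end there were 193 core distal regions, and between 4 and 5 kb there were 240 regions that met every other condition. A further 3312 regions met every other condition but lacked an H3K27ac peak in 1 line, most often HCC364 (1263) and least often NCI-H2087 (437).

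The NKX2-1 and H3K27ac peaks chose these regions, so their strength is given as a description. The median NKX2-1 fold over the 7519 regions was 13.4 in NCI-H2087 cells, 12.6 in NCI-H358 cells, 16.8 in NCI-H441 cells and 17.3 in HCC364 cells, beside medians of 8.29, 7.78, 9.14 and 9.03 over the whole lists of the same lines. The median region stood at the 75.1th, 78.1th, 79.5th and 80.3th percentile of those lists. For H3K27ac the median folds were 13.1, 14.2, 13.8 and 11.4, beside 7.18, 8.14, 8.38 and 6.70 over the whole lists.

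Strength was shared between lines only in part. For a given region the NKX2-1 percentile differed between the highest and the lowest line by a median of 24.96 percentile points. A total of 852 regions (11.3%) stood above the 90th percentile in all 4 lines, 3512 did so in at least 1 line, and 288 stood below the 50th in all 4. Spearman's rho of NKX2-1 fold over the 7519 regions was 0.61 to 0.72 between pairs of lines, and that of H3K27ac fold 0.40 to 0.61. The 3 lowest H3K27ac values were the pairs that include HCC364. Within a line, NKX2-1 and H3K27ac folds had rho of 0.23 to 0.31. The points of such a correlation share their libraries, and no test was made.

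NKX2-1 summits lay close together in the 4 lines. The strongest summits of the 4 lines spanned a median of 57 bp within a region (quartiles 29 and 123 bp), and in 44.7% of regions they lay within 50 bp of each other. In 670 regions (8.91%) they spread over more than 500 bp, so a wide region can hold more than 1 site.

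The name enhancer was checked against H3K4me1, which the rule did not use. H3K4me1 peaks overlapped 96.8% of core distal regions in NCI-H2087 cells, 98.7% in NCI-H358 cells, 99.3% in NCI-H441 cells and 98.4% in HCC364 cells, beside 43.1%, 48.9%, 52.7% and 49.1% of all merged regions in the same lines. In the unacetylated distal regions the shares were 48.1%, 57.1%, 56.2% and 58.9%. The groups did not overlap, and the mean was 98.3% ± 1.04 in core distal regions and 55.1% ± 4.79 in unacetylated distal regions (SD, n = 4 lines each). The difference was 43.2 ± 3.97 percentage points and was positive in 4 of 4 lines (exact two-sided sign-flip permutation test over the lines, p = 0.125, adjusted p = 0.125 over 3 tests). With 4 lines 0.125 is the smallest p that this test can give, so it cannot reach 0.05. Core distal regions are wider, and in windows of 500 bp on the strongest NKX2-1 summit, with the regions chosen again, the difference was 38.6 points.

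H3K4me1 was present in all 4 lines at 7098 core distal regions (94.4%, beside 23.4% of all merged regions) and in no line at 5 of them (beside 23.9%). In the distal regions acetylated in some lines the share with H3K4me1 in all 4 lines was 71.7%, in those acetylated in none 30.5%, and in the gene-end or H3K4me3 regions acetylated in all lines 39.5%. The median core distal region with an H3K4me1 peak stood at the 87.2th to 90.2th percentile of the H3K4me1 list of its line.

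Choosing regions in 3 lines and reading the other one gave a measure of how far the class carries over. The H3K4me3 peaks of NCI-H2087 were still used to exclude regions when that line was the one left out. With the rule applied to 3 lines, H3K27ac of the line left out overlapped 90.1% of the chosen regions in NCI-H2087 cells, 80.4% in NCI-H358 cells, 91.3% in NCI-H441 cells and 75.1% in HCC364 cells, beside 33.6%, 31.7%, 34.2% and 34.4% of all regions merged from the other lines. In distal regions bound in the 3 lines and acetylated in none of them the shares were 8.96%, 5.95%, 7.45% and 11.6%. HCC364 had both the lowest share at the chosen regions and the highest at the unacetylated ones. The means were 84.2% ± 7.81 at the chosen regions and 8.50% ± 2.42 at the unacetylated ones (SD, n = 4 held-out lines), a difference of 75.7 ± 9.09 points, higher in 4 of 4 lines (exact sign-flip permutation p = 0.125, adjusted p = 0.125).

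NKX2-1 itself carried over more often at the chosen regions, by a smaller margin. Its peaks in the line left out overlapped 90.2% of the regions chosen without NCI-H2087, 87.2% without NCI-H358, 97.5% without NCI-H441 and 83.5% without HCC364, beside 47.6%, 46.2%, 57.0% and 52.1% of all regions merged from the other lines. At the unacetylated regions the shares were 72.8%, 66.1%, 87.9% and 68.9%. The means were 89.6% ± 5.94 and 73.9% ± 9.72 (SD, n = 4 held-out lines), a difference of 15.7 ± 4.88 points in 4 of 4 lines (exact sign-flip permutation p = 0.125, adjusted p = 0.125). The 4 values of a comparison share lines with each other, because each line helps to choose the regions of the other 3. The classes also differed in NKX2-1 strength. By quartile of the NKX2-1 percentile in NCI-H2087 over distal regions bound in all 4 lines, 1557 of 4686 unacetylated regions fell in the weakest and 908 in the strongest. Of the 7519 core distal regions, 1491 and 2123 did. The effect of NKX2-1 strength on the held-out difference was not tested.

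**Figure D1:**
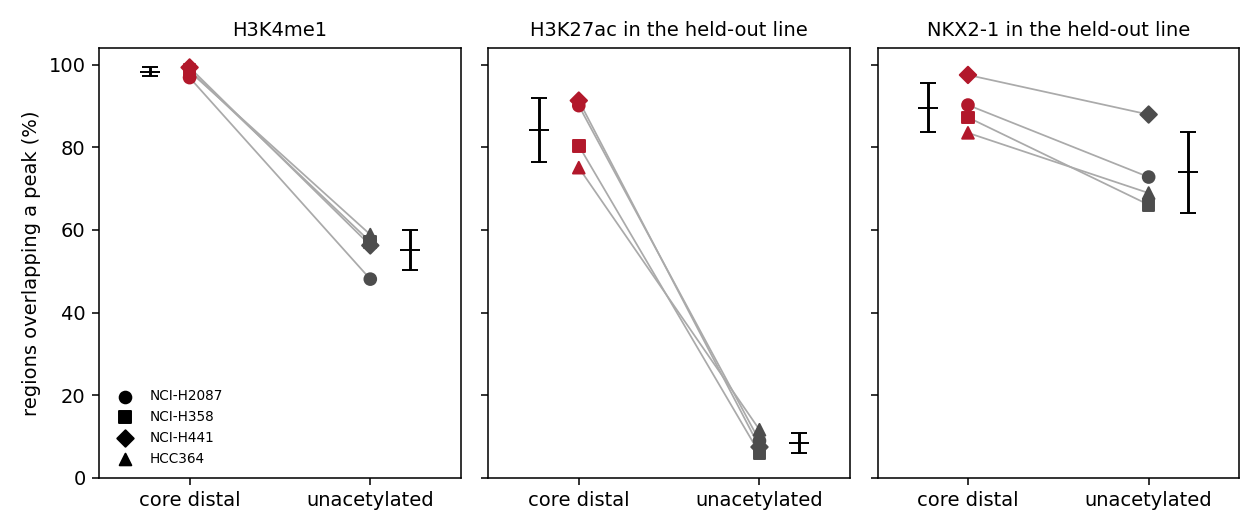
Share of regions (percent, y axis) overlapping an H3K4me1 peak, an H3K27ac peak in the held-out line and an NKX2-1 peak in the held-out line, for core distal regions (left) and distal shared regions without H3K27ac (right). Each symbol is a line and black marks are the mean ± SD of 4 lines. H3K4me1 averaged 98.3% against 55.1%, held-out H3K27ac 84.2% against 8.50% and held-out NKX2-1 89.6% against 73.9%.

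In NCI-H2087 most core distal regions also carried forkhead factors and c-Jun. FOXA1 peaks overlapped 79.8% of them (exact 95% interval 78.9% to 80.7%, beside 32.5% of all merged regions), against 49.1% of unacetylated distal regions and 49.0% of gene-end or H3K4me3 regions. FOXA2 overlapped 81.4% (80.5% to 82.3%, beside 36.2%), against 54.1% and 49.6%. Distal regions acetylated in some lines had FOXA1 at 68.4% and FOXA2 at 72.1%. The intervals cover counting error only, and there is 1 library per antibody and no test. FOXA1 and FOXA2 are close relatives that bind the same motif, and 96.8% of the core distal regions with FOXA1 had FOXA2. Whether each antibody sees only its own factor was not tested.

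Among the 5 partners, c-Jun had the largest difference in share from the unacetylated distal regions. It overlapped 74.3% of them (73.3% to 75.3%, beside 15.2% of all merged regions), against 22.5% of unacetylated distal regions and 30.2% of gene-end or H3K4me3 regions. In the distal regions acetylated in some lines the c-Jun share was 50.4%. c-Jun peaks also lay closest to NKX2-1, with a median of 46 bp between the c-Jun summit and the strongest NKX2-1 summit.

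SOX2, from a list of 9262 peaks, overlapped 22.5% of core distal regions (21.5% to 23.4%, beside 6.08%), against 11.2% of unacetylated distal and 7.06% of gene-end or H3K4me3 regions. Of the 1689 core distal regions with SOX2, 98.8% also had FOXA1 and 90.3% had c-Jun. EP300, the acetyltransferase, overlapped 22.3% of core distal regions (21.3% to 23.2%, beside 4.87%), against 4.40% and 27.9%. Its list was the shortest, with 7406 peaks, and a region without an EP300 peak is one where none passed the threshold. RNA polymerase II overlapped 39.3% of core distal regions (38.2% to 40.4%, beside 15.4%), against 0.384% of unacetylated distal and 85.9% of gene-end or H3K4me3 regions. Distal regions acetylated in some lines had SOX2 at 17.4%, EP300 at 10.1% and RNA polymerase II at 6.76%.

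CTCF went the other way. It overlapped 16.2% of core distal regions (15.4% to 17.1%, beside 19.7% of all merged regions). Its share was 38.0% in unacetylated distal and 37.2% in gene-end or H3K4me3 regions. Distal regions acetylated in some lines had CTCF at 18.0%, close to the core distal share. Where both were present, the CTCF summit lay a median of 206 bp from the strongest NKX2-1 summit in core distal regions. In unacetylated distal regions the distance was 39 bp. Other partners were also nearer there, at 28.5 bp for EP300, 32 bp for c-Jun and 39.5 bp for FOXA1, against 59, 46 and 70 bp. Median widths were 615 bp in unacetylated and 1043 bp in core distal regions, and the effect of width was not tested.

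**Figure D2:**
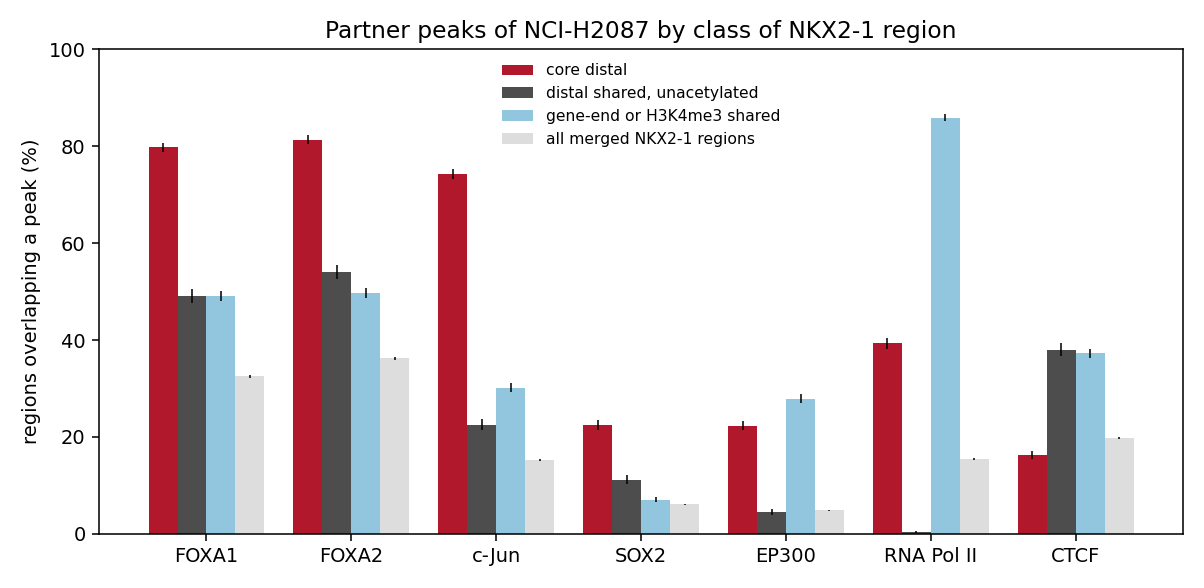
Share of regions (percent, y axis) overlapping a peak of each partner in NCI-H2087 (x axis), for core distal regions, unacetylated distal shared regions, gene-end or H3K4me3 shared regions, and all merged NKX2-1 regions; bars carry exact 95% intervals. c-Jun overlapped 74.3% of core distal regions against 22.5% of unacetylated ones, and CTCF 16.2% against 38.0%.

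The partners came in combinations. Of the 7519 regions, 907 (12.1%, beside 1.68% of all merged regions) had all 5 of FOXA1, FOXA2, SOX2, c-Jun and EP300, and 539 (7.17%, beside 57.8%) had none of them. The most common set was FOXA1, FOXA2 and c-Jun without SOX2 and EP300, in 2488 regions (33.1%, beside 6.55% of all merged regions). FOXA1 and FOXA2 alone marked 985 regions (13.1%, beside 16.7%), and c-Jun alone 624 (8.30%, beside 2.97%). SOX2 without any of the other 4 was rare in both, at 1 core distal region (0.0133%, beside 0.114% of all merged regions).

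Regions with all 5 partners and regions with none differed in width, NKX2-1 strength and the share with an RNA polymerase II peak. The 907 with all 5 had a median width of 1363 bp, RNA polymerase II at 63.8% and H3K4me1 in all lines at 98.7%. The 539 with none had a median width of 807 bp, RNA polymerase II at 20.4% and H3K4me1 in all lines at 86.5%. The median NKX2-1 percentile was 94.7 against 41.0 in NCI-H2087, and in the lines where no partner was profiled it was 92.1 against 61.4 in NCI-H358, 91.5 against 68.2 in NCI-H441 and 90.6 against 70.8 in HCC364. The NKX2-1 percentile did not climb at every step, since outside NCI-H2087 regions with 2 partners stood below those with 1 (68.5 against 69.7 in NCI-H358). Median H3K27ac percentiles were 89.1 with all 5 against 56.5 with none in NCI-H2087, 77.8 against 64.5 in NCI-H358, 77.7 against 64.2 in NCI-H441 and 73.5 against 72.4 in HCC364.

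Since partner shares moved with NKX2-1 strength, they were also read within quartiles of the NKX2-1 percentile in NCI-H2087 over the distal shared regions, in windows of 500 bp. This split was chosen after the data were seen. c-Jun was present at 49.9%, 63.6%, 75.7% and 88.8% of core distal regions from the weakest to the strongest quartile, against 8.80%, 15.0%, 28.9% and 49.2% of unacetylated distal regions. In each quartile the c-Jun share was higher in the core distal regions, beyond the counting intervals. FOXA1 differed less as NKX2-1 grew stronger, from 54.7% against 25.2% in the weakest quartile to 91.99% (90.8% to 93.1%) against 86.6% (84.2% to 88.7%) in the strongest.

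In the strongest quartile the counting intervals of SOX2 and of CTCF overlapped between the classes. SOX2 was present at 45.2% of core distal regions (43.1% to 47.4%) against 42.2% of unacetylated ones (38.9% to 45.5%), and CTCF at 12.4% (11.0% to 13.9%) against 11.5% (9.45% to 13.7%). The CTCF difference lay in the weaker quartiles, with 15.0% of core distal regions against 54.9% of unacetylated regions in the weakest. EP300 was present at 50.3% against 21.0% in the strongest quartile, and RNA polymerase II at 50.9% against 0.110%. In that quartile the distal regions acetylated in some lines had FOXA1 at 90.7%, SOX2 at 43.4% and CTCF at 11.0%. They had c-Jun at 74.3%, EP300 at 32.0% and RNA polymerase II at 10.4%.

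**Figure D3:**
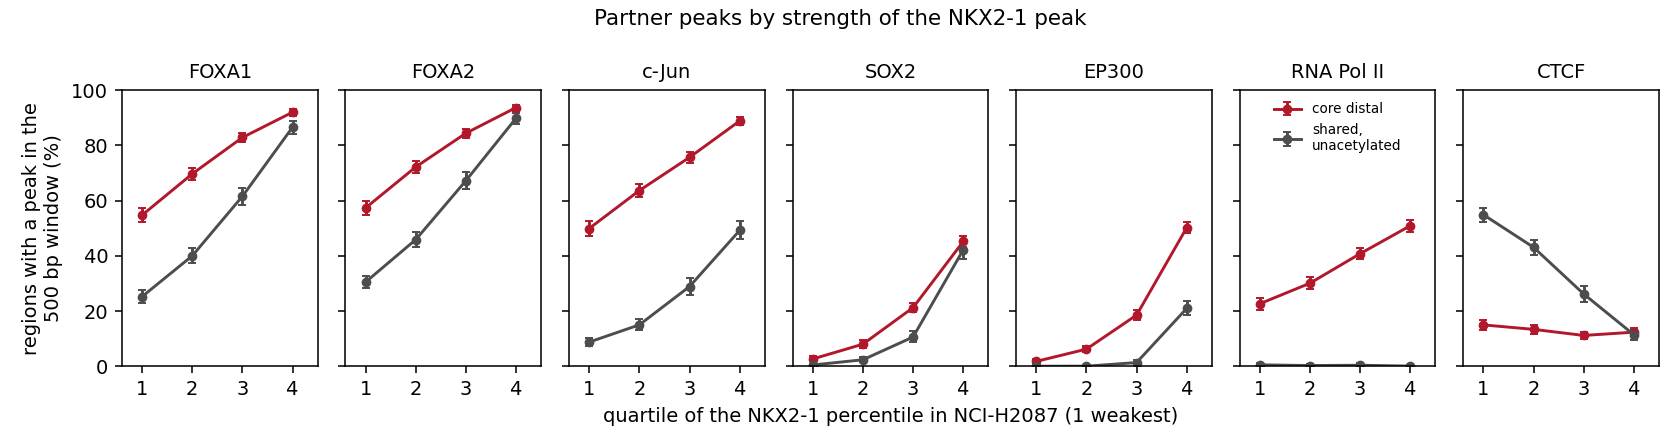
Share of regions (percent, y axis) with a partner peak in the 500 bp window on the strongest NKX2-1 summit, by quartile of the NKX2-1 percentile in NCI-H2087 (x axis, 1 weakest), for core distal (red) and unacetylated distal shared regions (grey); bars are exact 95% intervals. The c-Jun curves stay apart in every quartile (88.8% against 49.2% in the strongest), while those of CTCF meet (12.4% against 11.5%).

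The factors sat in the middle of the regions and the histone marks beside it. Median distances from the strongest NKX2-1 summit were 46 bp for c-Jun, 59 bp for EP300, 62 bp for SOX2, 70 bp for FOXA1 and 71 bp for FOXA2, each over the core distal regions with that peak. RNA polymerase II and CTCF lay farther away, at 186 bp and 206 bp. H3K27ac summits lay at a median of 341 to 377 bp in the 4 lines and H3K4me1 summits at 457 to 581 bp. Only 0.545% to 1.14% of core distal regions had an H3K27ac summit within 50 bp of the NKX2-1 summit, while 53.2% of those with c-Jun had a c-Jun summit there.

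**Figure D4:**
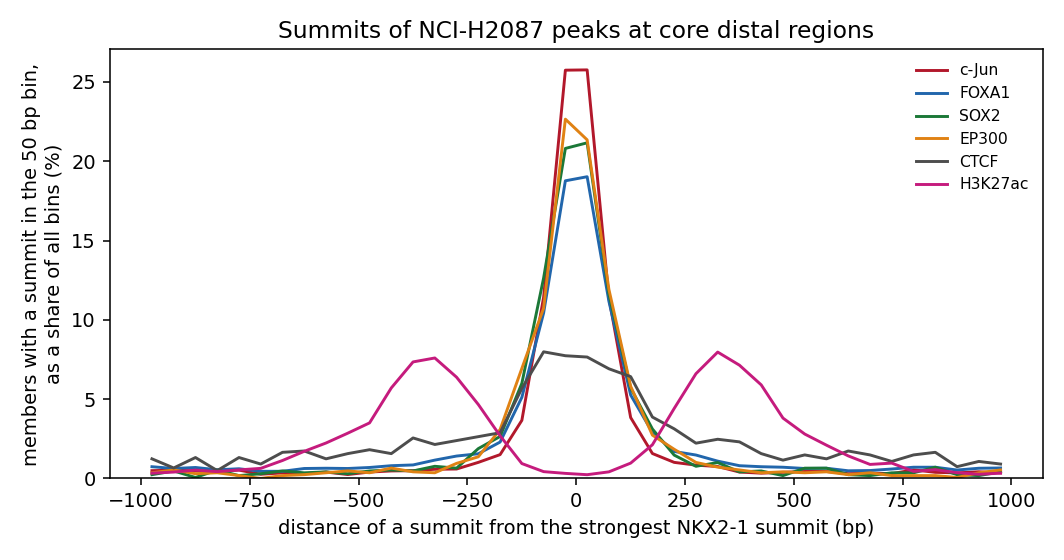
Signed distance (bp, x axis) of NCI-H2087 summits from the strongest NKX2-1 summit of each core distal region, in bins of 50 bp; the y axis is the number of regions with a summit in the bin as a share of all bins (percent). c-Jun, EP300, SOX2 and FOXA1 peak at the centre (medians of 46 to 70 bp), CTCF is broad (206 bp) and H3K27ac has a maximum on each side with a dip between them (376 bp).

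By mean NKX2-1 percentile over the lines, the strongest region lay 173.6 kb from HMGA2, a chromatin architectural gene of growth and tumours, in intergenic sequence at chr12:65648850-65650832. It had NKX2-1 folds of 96.2 in NCI-H2087 cells, 108 in NCI-H358 cells, 107 in NCI-H441 cells and 163 in HCC364 cells, and H3K27ac folds of 21.7, 55.8, 33.8 and 12.3 in the same lines. In NCI-H2087 it held all 5 partners, with folds of 110 for FOXA1, 133 for FOXA2, 50.2 for c-Jun, 21.4 for SOX2 and 11.2 for EP300, and no RNA polymerase II or CTCF peak. The next lay inside RUNX1, which encodes a Runt family transcription factor, at chr21:34877410-34879475, with NKX2-1 folds of 84.8, 79.1, 85.1 and 134 in the 4 lines. By fold in a single line other regions stood higher, with maxima of 113 in NCI-H2087 cells, 139 in NCI-H358 cells and 201 in HCC364 cells.

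Of the 12 regions with the highest mean NKX2-1 percentile, all had FOXA1, FOXA2 and c-Jun and H3K4me1 in 4 lines, 11 had EP300 and 9 had SOX2. They stood near HMGA2, RUNX1, SPTBN1, BTG1, CNIH3, LPCAT1, C1orf116, CHD2, EFEMP1, PARD3, CTNNBIP1 and MREG. For comparison, the core distal regions in the strongest NKX2-1 quartile of NCI-H2087 were read in 500 bp windows. FOXA1 was present at 91.99% of those, FOXA2 at 93.7%, c-Jun at 88.8%, EP300 at 50.3% and SOX2 at 45.2%. H3K4me1 in all lines was present at 94.4% of all core distal regions. The region near LPCAT1, which encodes an enzyme of surfactant lipid synthesis in alveolar type 2 cells, lay 21.5 kb from the gene at chr5:1545500-1546895, with NKX2-1 folds of 74.7, 75.6, 97.6 and 108 and H3K27ac folds of 28.2, 15.2, 39.0 and 30.2 in NCI-H2087 cells, NCI-H358 cells, NCI-H441 cells and HCC364 cells. The region 94.9 kb from CHD2 had the highest H3K27ac fold of the 12 in each line, 45.1, 98.0, 72.1 and 59.8 in the same order, and a FOXA1 fold of 163. The region inside SPTBN1, a spectrin gene, had NKX2-1 folds of 77.2, 73.6, 97.4 and 146 but H3K27ac folds of 12.2, 14.6, 5.56 and 9.41, and no SOX2 peak. High NKX2-1 was therefore found with H3K27ac from below to far above the median of the class. The 10 strongest regions with all 5 partners shared 9 members with this group and added one 44.7 kb from XPR1, whose NKX2-1 fold of 201 in HCC364 was the highest of any core distal region in that line.

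At the NKX2-1 gene itself 3 core distal regions lay within 200 kb (chromosome 14). The nearest, chr14:36476742-36480876, was 4135 bp wide and lay 35.5 kb from the gene inside a long non-coding RNA gene. It held all 5 partners, RNA polymerase II and CTCF, with NKX2-1 folds of 35.2, 38.2, 43.8 and 33.7 and H3K27ac folds of 38.1, 30.6, 88.7 and 10.5 in NCI-H2087 cells, NCI-H358 cells, NCI-H441 cells and HCC364 cells. These folds come from separate lists and are not compared between lines. The second, chr14:36383015-36384550, lay 131.8 kb away with MBIP as its nearest coding gene and had NKX2-1 folds of 17.0, 23.4, 25.6 and 10.7. The other, chr14:36690436-36691280, lay 170.2 kb away inside SLC25A21 near PAX9, with folds of 13.6, 4.51, 13.8 and 9.62.

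A total of 5971 regions (79.4%) lay within 100 kb of a coding gene end and were given to the nearest one, which spread them over 3253 genes. Of these genes, 1922 had exactly 1 region and 184 had at least 5. By this assignment SMAD3, the transducer of TGF-beta signals, had the most, 14 of the 51 merged NKX2-1 regions nearest to it. Of those 14, 13 had their midpoint inside a coding gene, 12 had FOXA1, 13 FOXA2, 9 c-Jun, 10 RNA polymerase II and 1 SOX2. Over all core distal regions these shares were 54.5%, 79.8%, 81.4%, 74.3%, 39.3% and 22.5%, in the same order. The mean NKX2-1 percentile of the 14 ran between 39.8 and 94.2 with a median of 71.7, and the strongest, chr15:67106700-67107824, had NKX2-1 folds of 24.4 in NCI-H2087 cells, 31.3 in NCI-H358 cells, 24.8 in NCI-H441 cells and 39.9 in HCC364 cells.

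ATXN1, which encodes a transcriptional co-regulator, had 12 regions. MYH9, the heavy chain of non-muscle myosin IIA, had 11, of which 5 had c-Jun, 5 FOXA1 and none SOX2. RUNX1 and NSMCE2, the gene of a SUMO ligase on chromosome 8, also had 11 each. The merged NKX2-1 regions nearest to these genes numbered 40 for ATXN1, 49 for MYH9, 39 for RUNX1 and 44 for NSMCE2. NSMCE2 had SOX2 at 7 of 11 regions, EP300 at 7 and all 5 partners at 6, while the SMAD3 regions had all 5 at 0 of 14. Over all core distal regions the shares were 74.3% for c-Jun, 79.8% for FOXA1, 22.5% for SOX2, 22.3% for EP300 and 12.1% for all 5. The counts per gene are small and were not tested.

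MET, the receptor of hepatocyte growth factor, had 10 of the 41 merged NKX2-1 regions nearest to it. Of these 10, 8 had c-Jun and 3 all 5 partners, beside 74.3% and 12.1% of all core distal regions. The strongest MET region, chr7:116689426-116690592, had NKX2-1 folds of 48.0, 45.8, 73.6 and 86.5 in NCI-H2087 cells, NCI-H358 cells, NCI-H441 cells and HCC364 cells. MICAL2, an actin-oxidising enzyme gene, MYOF, a membrane repair gene, CDC42EP3, an effector of CDC42, and ANXA2, an annexin gene, had 10 each as well. The strongest MICAL2 region had folds of 37.8, 9.13, 54.1 and 124 in the 4 lines, each from its own list. TMC1, NRP1, which encodes a co-receptor of semaphorins and VEGF, SLC39A11, a zinc transporter gene, PLB1 and LIMA1, an actin-binding gene, had 9 each. Among these, the NRP1 regions had a median mean percentile of 86.4 and those of LIMA1 51.4. Nearness to a gene end does not show which gene a region acts on.

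Gene lists were set beside all 19974 coding genes by the number of core distal regions within 100 kb of either gene end, where a region counts for every gene in reach. The highest count by this measure was 17, at ATXN1. Over all genes the mean was 0.796 and the median 0, and 39.99% of genes had at least 1. The 10 TGF-beta genes had a mean of 3.4 and a median of 2.5, with 14 at SMAD3, 8 at TGFB2, which encodes a ligand, and 4 at TGFB1. The 2 receptor genes had 2 (TGFBR1) and 3 (TGFBR2). In all, 6 of 10 genes had a region. Within 200 kb the TGF-beta mean of 3.6 lay below those of the receptor tyrosine kinase and MAPK genes (4) and the alveolar type 1 genes (3.9), so the order of the lists depends on the window.

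Epithelial and growth factor genes were next at 100 kb. The 14 keratin and junction genes had a mean of 2.5, with 8 at CDH1, the E-cadherin gene, 8 at OCLN, the occludin gene, and 5 each at EPCAM and KRT7, and 11 of 14 had at least 1. The 15 receptor tyrosine kinase and MAPK genes had a mean of 2.47, with 10 at MET, 7 at EGFR and 7 at ERRFI1, a feedback inhibitor of EGFR, while ERBB2, ERBB3, FGFR2, BRAF, SPRY2 and ETV5 had 0. The 10 YAP and TEAD genes had a mean of 2.2, with 7 at YAP1 itself, 4 at CCN1 and 4 at WWTR1, which encodes TAZ. Of these 10 genes 7 had a region, and TEAD4, CCN2 and ANKRD1 had 0. The 9 AP-1 genes had a mean of 1.78, with 6 at JUN, which encodes c-Jun, 4 at ATF3 and 2 at FOSL2, and 0 at JUNB and JUND.

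Genes of both alveolar cell types were read next. The 10 alveolar type 1 genes had a mean of 2 and a median of 1, with 7 at GPRC5A, 5 at HOPX and 4 at CAV1. A region was near 6 of the 10 (60%), while AGER, PDPN, AQP5 and EMP2 had 0. The 12 alveolar type 2 genes had a mean of 0.917 and a median of 0, and 5 of 12 (41.7%) had a region, near the share of all genes. Of these, LPCAT1 had 6, CTSH 2 and LAMP3, MUC1 and SFTPC 1 each, while SFTPA1, SFTPA2, SFTPB, SFTPD, ABCA3, NAPSA and SLC34A2 had 0. Within 50 kb the means were close, 0.8 for alveolar type 1 and 0.75 for alveolar type 2 genes, and the difference was not tested. The 13 lung and foregut transcription factor genes had a mean of 1.62, with 6 at ELF3, 4 at EHF and 3 at GRHL2, and 0 at FOXA1, FOXA2, SOX2 and CEBPA.

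The nuclear receptor genes had a mean of 1.7, with 7 at NR3C1, the glucocorticoid receptor, 5 at PPARG and 1 at ESRRA. The basal and squamous genes had the same mean, with 6 at DSG3, 4 at ITGB4 and 3 at TP63. Of these 10 genes 6 had a region, and KRT5, KRT14, KRT15 and SERPINB5 had 0. The ciliated genes had 1.5, with 6 at DNAH5, 2 at CAPS and 2 at TPPP3, and the housekeeping genes 1.4, with 5 at TUBB, 4 at RPLP0 and 2 at B2M, so a mean above that of all genes is no mark of lung function. The means were 0.7 for airway secretory genes (LTF 2, AGR2 1, BPIFB1 1), 0.5 for mesenchymal (PDGFRB 2, COL1A1 1, FN1 1) and 0.4 for immune genes (CD8A 2, CD4 1, PTPRC 1). Neuroendocrine genes had 0.2 (DLL3 1, UCHL1 1), gastric, intestinal and liver genes 0.1 (LGALS4 1) and erythroid genes 0. Gene length was not accounted for, neighbouring genes can count the same region, and no test was made.

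**Figure D5:**
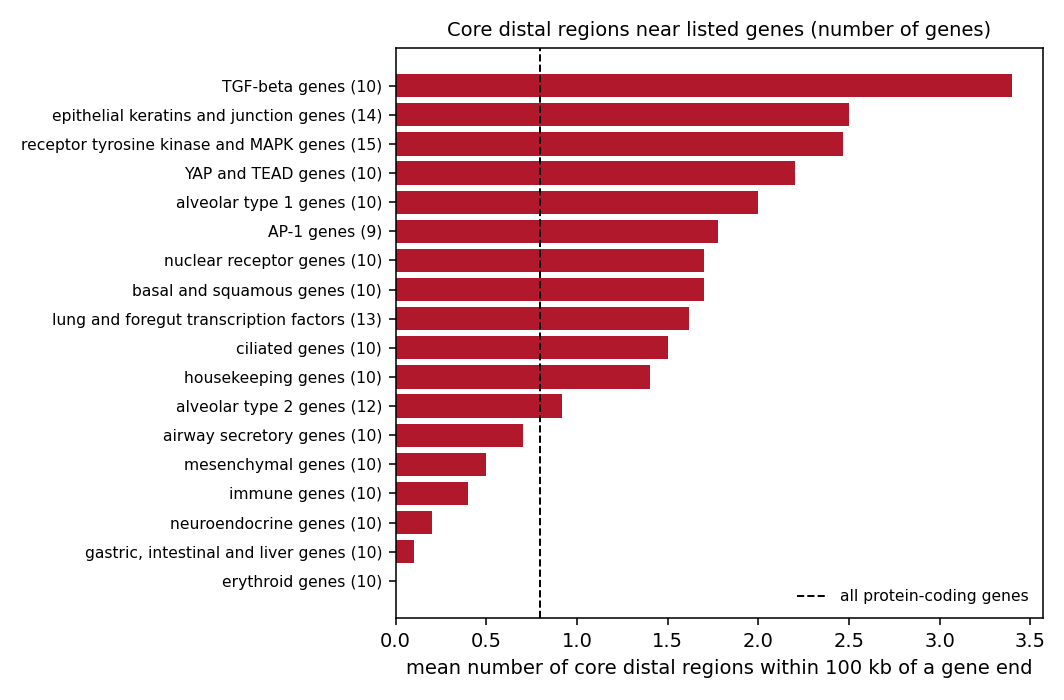
Mean number of core distal regions within 100 kb of either end of a gene (x axis) for 18 gene lists (y axis, number of genes in brackets); the dashed line is the mean of all coding genes, 0.796. TGF-beta genes had a mean of 3.4, alveolar type 1 genes 2, alveolar type 2 genes 0.917 and erythroid genes 0.

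Many regions stood in groups. Joining regions at most 10 kb apart gave 5935 groups, of which 4791 were single regions and 1144 held 2 or more, with 2728 regions in them (36.3%). A total of 100 groups held 4 or more. The largest by number lay inside ANKRD36C (chr2:95894351-95915690, 9 regions in 21.3 kb), where all 9 had FOXA1, FOXA2, c-Jun and RNA polymerase II but NKX2-1 was of middling strength (mean percentile 51.9). Over all core distal regions these factors had shares of 79.8%, 81.4%, 74.3% and 39.3%, in that order. ANKRD36C has near-identical relatives in the genome between which reads cannot be told apart with certainty, so the values of that group are uncertain.

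Groups of 8 lay inside SMAD3 (chr15:67073635-67107824, 34.2 kb), inside ANXA2 (chr15:60359013-60392033, 33.0 kb) and 124.4 kb from TOMM20 (chr1:234956815-234984937, 28.1 kb). On chromosome 8, 2 groups had MYC, the growth-driving transcription factor gene, as their nearest coding gene, with 7 regions 409.1 kb from the gene and 6 regions 146.7 kb from it. In the farther group all 7 regions had c-Jun, FOXA1, FOXA2, EP300 and RNA polymerase II, and 5 had SOX2, while of the 6 nearer ones 3 had EP300 and 2 had RNA polymerase II. The MYH9 group of 7 had c-Jun at 2 and EP300 at 0, and the OCLN group of 7 had RNA polymerase II at 7 and EP300 at 0. Groups of 6 lay near STK17A inside COA1 and 234.3 kb from SLC39A11. Over all core distal regions the shares were 74.3% for c-Jun, 79.8% for FOXA1, 81.4% for FOXA2, 22.5% for SOX2, 22.3% for EP300 and 39.3% for RNA polymerase II. Groups of like size ran from none with EP300 to all of them. Each group holds few regions, and the differences were not tested.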

How the data were processed

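The build hg38 (GRCh38) and the tools MACS2, in versions 2.1.1 and 2.2.7.1, bedtools, Bowtie2 2.2.9, Trimmomatic 0.36 and SAMtools 1.9 are named in the submitters' processing notes; the role of each tool, the MACS2 version of each list and the use of the 5 input libraries are not given in the sources used here. The deposited files are peak lists per library, 7406 to 121789 peaks each on chromosomes 1 to 22 and X, the only ones used. In the deposited lists, column 7 is a linear ratio (fold over background), and columns 8 and 9 are −log10 p and −log10 q, all at least 3 for q. Read depth is not known from these files. These authors' values only rank or filter peaks within a list.

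From these lists, peaks were merged and overlapped (at least 1 bp) with Python 3.11.15, numpy 2.4.6, pandas 2.3.3 and SciPy 1.17.1. The interval functions and the test were tested on simulated data. The NCBI RefSeq gene table (GRCh38.p14) has no strand, so either gene end was used. No whole genome sequence was used. The 5 motifs were searched on either strand, and only in the 34789 RefSeq start windows, which come with strand and sequence. H3K4me3 was profiled in NCI-H2087 alone, so a start active only in another line can remain. Percentiles are ranks of fold within a list. Differences within lines were tested over the 4 lines by an exact sign-flip permutation with Benjamini-Hochberg adjustment over 3 tests; shares have exact Clopper-Pearson 95% intervals.

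The members and gene lists were chosen with earlier results of these data known. Named are the 15 genes that were nearest to the most regions within 100 kb, the 12 strongest regions, the 10 strongest with all 5 partners, the 10 largest groups, the 3 leading genes of each list with a region, the regions within 200 kb of NKX2-1 and the 10 strongest at a non-coding start or hairpin; other genes named were chosen after their values were seen. Alternatives were another distance, a −log10 q of at least 10, 500 bp windows, the 20000 strongest peaks of a list, other gene and stitching windows and leaving out each line.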

Additional observations from a re-analysis of the deposited data

How the results depend on the processing

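The 3 differences over lines kept their sign under every alternative run for them; their p is fixed by the number of lines when all signs agree and says nothing about stability. Leaving out each line gave 41.4 to 44.5 points for H3K4me1, 73.0 to 79.8 for held-out H3K27ac and 13.9 to 17.7 for held-out NKX2-1. Within quartiles of NKX2-1 strength, chosen after seeing the data, the H3K4me1 difference was 39.1 points. The number of core distal regions fell to 1334 with the 20000 strongest peaks of each list, which shortens every list used to choose them, and was 8337 to 10514 when a line was left out. It stayed between 5192 and 9557 under the other alternatives.

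Partner shares moved beyond counting error with the construction of the lists. In 500 bp windows they were 76.7% for FOXA1, 78.7% for FOXA2, 21.2% for SOX2, 71.4% for c-Jun, 21.3% for EP300, 37.5% for RNA polymerase II and 12.8% for CTCF. With the 20000 strongest peaks they were 41.1% for FOXA1, 40.1% for FOXA2, 69.3% for c-Jun, 33.4% for RNA polymerase II and 4.40% for CTCF. With −log10 q of at least 10 they were 75.3% for FOXA1, 77.4% for FOXA2, 18.1% for SOX2, 67.7% for c-Jun, 10.5% for EP300 and 28.8% for RNA polymerase II. CTCF, at 15.5%, stayed within its interval there, and the SOX2 and EP300 lists hold fewer than 20000 peaks. Means above that of all genes were seen for 12 of 18 gene lists at 100 kb and 50 kb and 13 at 200 kb, where the mesenchymal list had a ratio of 1.14 to the mean of all genes. Of the ratios of list means to the mean of all genes at 50 kb and 200 kb, 22 stayed within 1.5 times the value at 100 kb and 13 moved further without a change of side, among them erythroid genes, at 0 within 100 kb and 0.267 within 200 kb. Groups of 2 or more numbered 916 at 5 kb and 1348 at 20 kb.

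No paired analysis was possible because no replicate numbers link the libraries, apart from the differences above, which were taken within each line. Read depth is not known from the peak lists, whose lengths on the chromosomes used ran between 7406 and 121789 peaks, so an absent peak says only that none passed the threshold.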

Other observations

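Core distal regions also overlapped starts and hairpins of annotated RNAs. Of the 7519, 156 regions (2.07%) overlapped an annotated start window of a long non-coding RNA. For a coding gene the number was 23 (0.306%), since alternative starts can lie inside a gene far from its outer ends. A whole window lay inside 150 of the 7519, beside 84 of 8110 distal shared regions acetylated in some lines and 17 of 4686 in none. The windows whose regions had the highest NKX2-1 belonged to LOC124907883 (mean percentile 99.5, 6.06 kb from CYP27C1), LOC124905589 (99.5), LOC105371625 (99.1), LOC105373954 (99.0), LOC114224 (98.9), LOC107001062 (98.4), LOC105378781 (98.3), LOC105370047 (97.8), LOC124901448 (97.2) and LINC01392 (96.6). A total of 9 microRNA hairpins overlapped core distal regions, that of MIR5587 only in part. For starts and hairpins the share over all merged regions was not computed, so these counts show no excess or deficit. The region at MIR378H stood at a mean percentile of 99.7, with NKX2-1 folds of 58.8 in NCI-H2087 cells, 59.6 in NCI-H358 cells, 79.8 in NCI-H441 cells and 95.2 in HCC364 cells, and held FOXA1, FOXA2, SOX2, c-Jun and EP300. The region at MIRLET7G, a let-7 family hairpin 10 kb from WDR82, had folds of 11.7, 12.8, 21.6 and 21.96 and held FOXA1 and c-Jun.

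By chromosome, core distal regions made up between 3.93% of the distal NKX2-1 regions on X and 8.59% on chromosome 21. As a share of the distal regions bound in all 4 lines they ran between 30.2% on chromosome 13 and 51.03% on chromosome 19.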
